A study of Mus musculus with 20 samples.

Results

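Granule cells of the mouse hippocampus were compared between postnatal day 10 (P10) and postnatal day 7 (P7) across all genes measured. The comparison took in 6 of the 20 libraries of the series, 3 labelled P10 and 3 labelled P7, chosen by their age labels alone. All came from mice of the genotype Rbp4-Cre:RiboTag, in which regulatory sequence of Rbp4 drives Cre and Cre adds an HA tag to the ribosomal protein RPL22. No treatment and no other allele is given in the labels, and every library, P5 included, carries the same genotype. Tagged ribosomes were pulled from lysates of the hippocampus with anti-HA beads, and poly-adenylated RNA from the pulldown was sequenced, so a level is that of ribosome-associated mRNA. The cells that were pulled down are those in which this Cre had been active by that age, and RNA of the whole hippocampus was not analysed here.

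The P7 and P10 libraries belong to different batches, as the labels name them. Batch A held the P10 libraries and 3 libraries of P5, and batch B held the P7 libraries and 2 libraries of P5. These 2 carry replicate numbers that also occur at P5 in batch A, and the labels do not say whether libraries with the same number share an animal or lysate; they were treated as separate samples, which bears on the batch term and its error. The ages were therefore joined through P5: the change from P7 to P10 is the change from P5 to P10 inside batch A less the change from P5 to P7 inside batch B. A fit without the batch term, which sets P10 directly against P7, is given beside it for a selection of genes and lists. Levels are given as CPM, counts scaled to a common total, after trimmed-mean scaling, and a gene is said to rise or fall where its adjusted p in edgeR's quasi-likelihood test was under 0.05. Whether replicate libraries stem from different mice is not in the labels, and a p-value here therefore reflects only how much these samples varied.

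Granule cells are the principal neurons of the dentate gyrus, which receives input from the entorhinal cortex and sends mossy fibers to CA3. Most are born around and after birth, so that in the early postnatal dentate gyrus newborn cells that migrate and extend axons lie beside cells that form synapses. Maturing granule cells exchange cytoskeletal and guidance proteins of growth for the receptors, channels and vesicle proteins of synaptic transmission, and they load zinc into the vesicles of their mossy fiber terminals.

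Total counts were 21.8, 24.7 and 24.9 M in the P7 libraries, 16.7, 16.8 and 16.7 M in the P10 libraries and 15.9 to 20.7 M at P5. On the first principal component of the 11 libraries of these ages, which held 59.2% of the variance, the P10 libraries lay at 58.1, 62.8 and 65.8 and the P7 libraries at 3.2, -4.3 and -21.3. P7 replicate 3 thus stood apart from its group toward the P5 libraries of batch B (-19.5 and -25.6), while those of batch A lay at -41.9, -40.0 and -37.2. Some counts that hang on P7 replicate 3 or on another single library are given with and without it below. Ranges for further lists stand at the end. Prox1, the transcription factor gene that marks granule cells, stood at 561, 410 and 469 CPM at P7 and at 532, 655 and 588 at P10, and the groups overlapped (log2 change 0.30, SE 0.13, adjusted p = 0.073). Without the batch term its change of 0.30 passed (adjusted p = 0.0077), as it did without P10 replicate 1 (0.37) and without P7 replicate 1 (0.42). Calb1, a calcium buffer gene of granule cells, overlapped too, at 477 to 650 CPM and 600 to 750 CPM (0.17, SE 0.14, adjusted p = 0.34; 0.25 without the batch term, adjusted p = 0.031). Rbp4 itself measured 6.82, 10.2 and 7.65 CPM at P7 and 14.7, 8.01 and 16.2 at P10 (0.73, adjusted p = 0.064), with P10 replicate 2 inside the range of P7. Its change passed the test without that library (0.98) and without P7 replicate 2 (0.90). Rpl22, the gene that carries the tag, stood at 110 to 121 CPM and 91.9 to 97.3 CPM, a log2 change of -0.16 (adjusted p = 0.098) that passed without the batch term (-0.29).

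**Figure D1:**
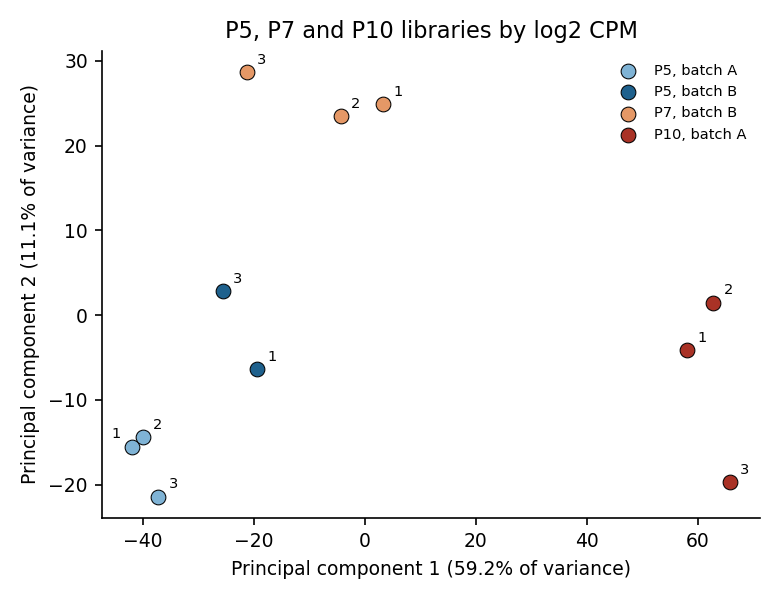
Principal components of log2 CPM for the 11 libraries of P5, P7 and P10, with the share of variance of each on its axis; a point is a library, numbered by replicate and coloured by age and batch. The P10 libraries lie between 58.1 and 65.8 on the first component, the P7 libraries between -21.3 and 3.2.

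Between P7 and P10, 6578 of 15373 genes tested changed (42.8%), 3455 of them upward (22.5%) and 3123 downward (20.3%). Large changes were mostly falls: of 1976 genes that changed at least 2-fold (12.9%), 434 rose (2.82%) and 1542 fell (10.0%). At 4-fold or more, 90 rose and 419 fell. The median log2 change of all genes was -0.01 and the median of its size 0.40. In 4382 genes (28.5%) every P10 library lay above every P7 library, and in 4398 (28.6%) every one lay below. Without the batch term 7788 genes passed (50.7%), 3990 higher (26.0%) and 3798 lower (24.7%). Both fits called 5566 genes in the same direction (36.2%) and none in opposite directions.

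Inside batch A 9442 genes differed between P5 and P10 (61.4%), and inside batch B 1698 differed between P5 and P7 (11%), 946 upward (6.15%) and 752 downward (4.89%). Between the P5 libraries of the 2 batches 1548 genes differed (10.1%), 1023 higher in batch B (6.65%) and 525 lower (3.42%), and 1035 of these were also among the genes that changed from P7 to P10. The batch term enters the change of every gene, also of those for which it did not pass the test. Values with and without it are set side by side below for a selection of genes. Calls fell to 4896 without P5 replicate 1 of batch B and to 5578 without P7 replicate 3. All 4786 and 5465 calls that these fits shared with the full fit had the same direction. These fits use mostly the same libraries as the full fit, so that agreement says little.

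Transcript length moved with these calls. With the genes cut into 4 equal bins by annotated exon length, 22.7% rose in the bin of the shortest and 21.5% in that of the longest, while 17.2%, 23.4% and 29.9% fell in the second to the last bin and 418 of 3814 genes in the first. The median log2 change went from 0.09 in the shortest bin to -0.09 in the longest, and from 0.10 to -0.12 without the batch term. For the batch term itself these medians were -0.01 and 0.03. The part of length in the gene groups below was not tested.

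Immature neuron genes fell. Of 34 tested, 18 fell (52.9%) and 4 rose (11.8%), beside 20.3% and 22.5% of all genes, with a median log2 change of -0.64. Dcx, whose product binds microtubules in migrating neurons, stood at 302, 359 and 413 CPM at P7 and at 101, 91.2 and 105 at P10. Every P10 library was below every P7 library, and the change was -2.12 (SE 0.12, adjusted p = 1.3e-10). Draxin, a secreted repellent of growing axons, went from 24.7, 31.6 and 39.7 CPM to 6.27, 5.66 and 5.00 (-2.81, SE 0.22, adjusted p = 2.1e-08). The newborn-neuron genes Sox11, a transcription factor gene, and Igfbpl1 fell by 1.45 (SE 0.14) and 1.85 (SE 0.19) on the log2 scale. The 4 members that rose were Neurod2 (0.85, SE 0.10), Prdm8 (0.81, SE 0.14), Gpm6a (0.61, SE 0.09) and Bcl11b (0.47, SE 0.10). Neurod2, Bcl11b and Prdm8 encode transcription factors and Gpm6a a membrane glycoprotein of neurites. Neurod1, a proneural factor gene, was lower with the batch term (-0.68, SE 0.13, adjusted p = 0.00016) and not without it (0.12, adjusted p = 0.66). Its P7 libraries (60.0, 48.6 and 66.8 CPM) and P10 libraries (59.5, 67.4 and 63.7) overlapped, while P5 stood at 124 to 138 in batch A and 74.1 to 74.8 in batch B.

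**Figure D2:**
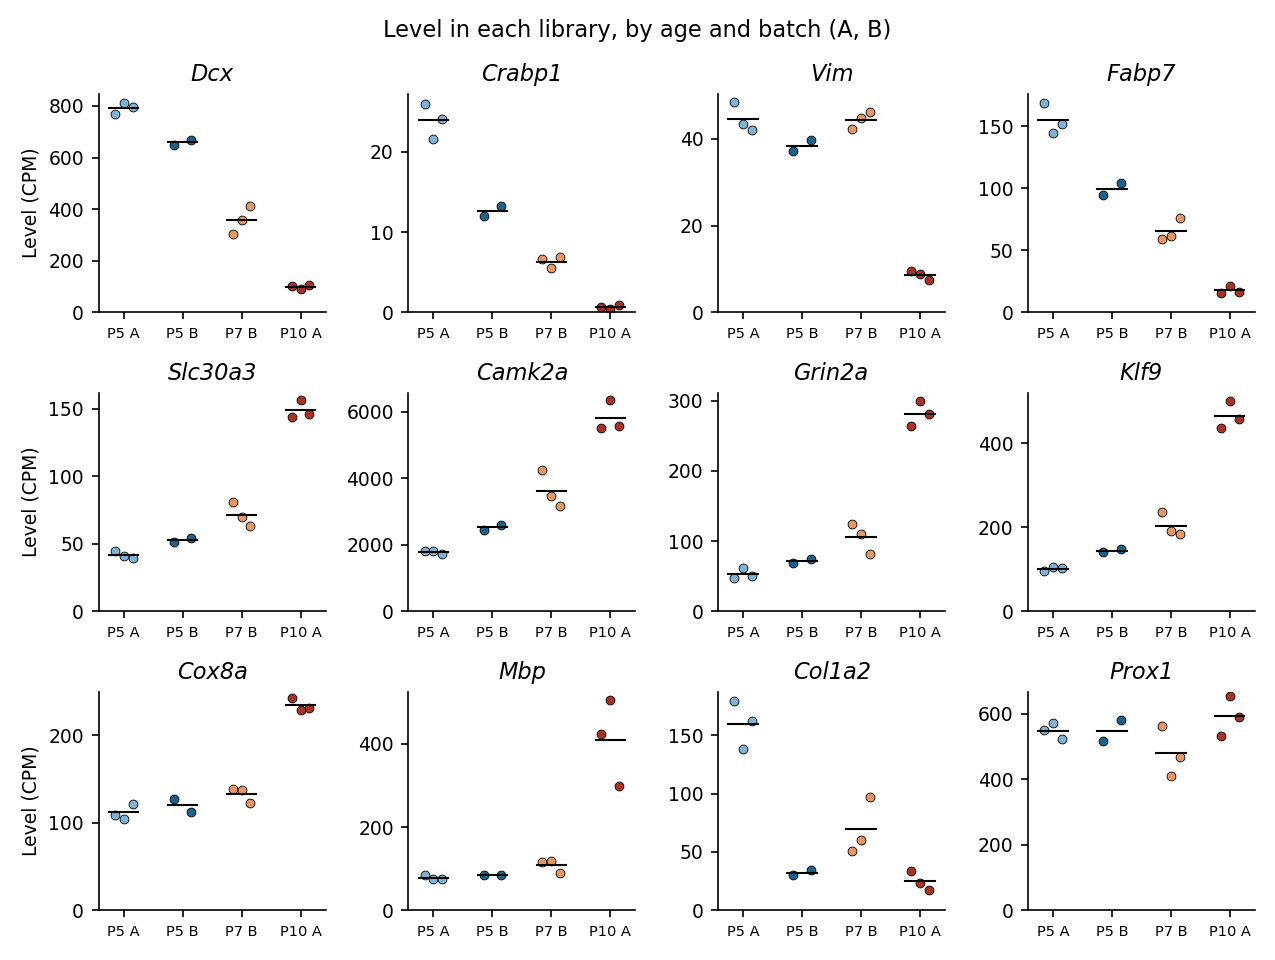
Level in CPM of 12 genes in each library of P5 in batch A, P5 in batch B, P7 and P10; a point is a library and a line the group mean, on axes that start at 0. Dcx falls at each step to 91.2 to 105 CPM at P10, Slc30a3 reaches 144 to 156 CPM, and the P5 levels of Col1a2 differ between batches.

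Axon guidance genes moved mostly downward as well, with 34 of 69 lower (49.3%), 13 higher (18.8%) and a median of -0.42. Sema4g, a semaphorin gene, fell from 77.6, 87.8 and 104 CPM to 42.8, 34.7 and 39.4 (-1.52, SE 0.13, adjusted p = 6.3e-09). The receptor genes Nrp2, for class 3 semaphorins, and Robo1, for Slit proteins, fell by 1.03 (SE 0.10) and 1.27 (SE 0.13). Among those that rose were the ligand gene Slit1 (0.78, SE 0.10) and the membrane-bound semaphorin gene Sema7a, from 93.5 to 108 CPM to 154 to 162 CPM (0.68, SE 0.09). Of 49 tubulin, kinesin and other microtubule genes 14 rose (28.6%) and 12 fell (24.5%), near the 22.5% and 20.3% of all genes, and without the batch term 11 rose and 21 fell. Mapt, the tau gene, went from 1177, 1376 and 1371 CPM to 607, 540 and 644 (-1.08, SE 0.10, adjusted p = 1.4e-08). The tubulin gene Tuba4a rose by 1.06 (SE 0.10) and Tppp, which encodes a tubulin polymerization-promoting protein, by 1.09 (SE 0.11).

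Genes of dividing cells were lower at P10. Of 38 cell cycle genes 27 fell (71.1%) and 3 rose (7.89%), beside 20.3% and 22.5% of all genes (median log2 change -1.58). Mki67, the proliferation marker gene, stood at 31.7, 28.2 and 41.9 CPM at P7 and at 6.69, 9.27 and 5.24 at P10 (-2.91, SE 0.45, adjusted p = 0.00017). Top2a, the topoisomerase of replicating cells, fell from 12.0, 12.3 and 14.3 CPM to 2.71, 3.98 and 2.17 (-2.41, SE 0.32). The spindle gene Tpx2 fell by 2.05 (SE 0.29) and the kinesin gene Kif23, which acts in cytokinesis, by 3.13 (SE 0.34). The members that rose were Mcm6 (0.65, SE 0.16), Ccne1 (0.75, SE 0.18) and Pcna (0.32, SE 0.11). The other Mcm genes of the list, Mcm2, Mcm3, Mcm4, Mcm5 and Mcm7, fell. Pcna did not pass without P5 replicate 3 of batch B (0.29, adjusted p = 0.071). Fewer cells of a type and less RNA per cell cannot be told apart in such bulk samples, here and in the groups that follow.

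Of 24 genes of neural stem cells and progenitors 17 fell (70.8%) and none rose, beside 20.3% and 22.5% of all genes (median -1.30). Vim, an intermediate filament gene of progenitors and glia, had the smallest p of the comparison among the genes named by rule. It stood at 42.2, 44.8 and 46.2 CPM at P7 and at 9.53, 8.73 and 7.53 at P10 (-2.59, SE 0.16, adjusted p = 1.3e-10). The P5 libraries lay at 37.1 to 48.5 CPM, so its fall came after P7. Nes, another intermediate filament gene of neural stem cells, went from 33.0, 37.1 and 39.2 CPM to 6.15, 6.62 and 3.37 (-2.59, SE 0.24). Fabp7, a fatty acid binding protein gene of radial glia, went from 58.9, 61.0 and 75.6 CPM to 15.7, 20.8 and 15.9 (-2.55, SE 0.15). Id3, an inhibitor of basic helix-loop-helix factors, fell by 1.45 (SE 0.21). Of 57 chromatin and DNA methylation genes 10 rose (17.5%) and 14 fell (24.6%), near the shares of all genes. The polycomb methylase gene Ezh2 fell from 13.5, 14.2 and 16.8 CPM to 5.06, 6.80 and 4.51 (-1.65, SE 0.26), and Uhrf1, which acts in maintenance of DNA methylation, by 2.82 (SE 0.46).

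Of 52 Wnt, BMP and Notch signalling genes 21 fell (40.4%) and 8 rose (15.4%), beside 20.3% and 22.5% of all genes (median -0.33). Dll1, a Notch ligand gene, fell by 1.30 (SE 0.22) and the Wnt receptor gene Fzd9 by 1.29 (SE 0.22). Hey1, a target gene of Notch signalling, rose from 35.9, 36.4 and 29.2 CPM to 56.7, 61.7 and 59.7 (1.01, SE 0.11). Smad3, which carries TGF-beta and activin signals to the nucleus, rose from 43.9, 40.8 and 25.6 CPM to 94.7, 119 and 114 (2.35, SE 0.25, adjusted p = 3.6e-06, and 1.58 without the batch term).

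Postsynaptic density genes rose in 33 of 47 tested (70.2%), against 22.5% of all genes, and 1 fell (2.13%), against 20.3% (median 0.56). Without the batch term 31 rose and 5 fell (median 0.41). The batch term passed the test for 19 of the 47, against 10.1% of all genes. Camk2a, the kinase gene central to synaptic plasticity, stood at 4246, 3469 and 3167 CPM at P7 and at 5526, 6355 and 5564 at P10. All P10 libraries were above P7 (1.18, SE 0.11, adjusted p = 3.3e-08), and the change was 0.68 without the batch term. Ppp3r1, the regulatory subunit gene of calcineurin, went from 526, 467 and 433 CPM to 1138, 1227 and 1223 (1.37, SE 0.10, adjusted p = 8.2e-10). Its P5 levels did not differ between batches beyond their spread (340 to 383 and 356 to 379 CPM), and the change was 1.33 without the batch term. Rgs14, a regulator of G protein signalling, rose by 1.63 (SE 0.13) and the scaffold gene Baiap2 by 1.06 (SE 0.10). Dlg2, a scaffold gene of the same family as Dlg4, was the member that fell (-0.25, SE 0.09, adjusted p = 0.025), from 751 to 854 CPM to 541 to 607. That call did not hold in 9 of the other fits, 6 of which left out a single library, among them P10 replicate 3 (-0.21, adjusted p = 0.072).

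On the presynaptic side 42 of 70 vesicle and release genes rose (60%) and 5 fell (7.14%), beside 22.5% and 20.3% of all genes (median 0.46). Without the batch term 36 rose and 11 fell (median 0.31). The batch term passed the test for 25 of the 70, against 10.1% of all genes. Slc30a3, the vesicular zinc transporter gene, stood at 80.9, 69.6 and 63.0 CPM at P7 and at 144, 156 and 146 at P10 (1.40, SE 0.11, adjusted p = 1.9e-09). Nptx1, a secreted pentraxin gene that acts in clustering AMPA receptors, went from 304, 253 and 236 CPM to 519, 602 and 540 (1.43, SE 0.11, adjusted p = 1.8e-09). Snap25, a SNARE gene of vesicle fusion, went from 893, 916 and 829 CPM to 1578, 1553 and 1677 (1.02, SE 0.09). Napa, which acts in SNARE disassembly, rose by 1.21 (SE 0.10) and the vesicular glutamate transporter gene Slc17a7 by 0.96 (SE 0.10). Slc17a6, the other main transporter gene of that kind, stood at 44.9 to 55.2 CPM and 25.6 to 50.7 CPM (0.05, SE 0.30, adjusted p = 0.92). Among the members that fell, the release factor gene Unc13b went from 110, 128 and 138 CPM to 61.0, 62.1 and 63.7 (-1.23, SE 0.15, adjusted p = 2.1e-06). The active zone gene Rims3 went from 72.3, 73.7 and 84.0 CPM to 32.1, 26.4 and 28.6 (-1.36, SE 0.21, adjusted p = 8.8e-05).

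Among the 37 genes of glutamate receptors tested, 16 rose (43.2%) and 8 fell (21.6%), the latter near the 20.3% of all genes (median 0.24). Grin2a, the NMDA receptor subunit gene of maturing synapses, stood at 124, 110 and 82.1 CPM at P7 and at 264, 299 and 281 at P10 (1.85, SE 0.17, adjusted p = 2.2e-07). Grin1, the obligatory subunit gene, rose by 0.62 (SE 0.08) and Grin2d fell by 1.15 (SE 0.14). Grin2b overlapped between the ages, at 588 to 760 CPM and 694 to 739 CPM, with a change of 0.37 with the batch term (SE 0.12, adjusted p = 0.019) and 0.04 without it (adjusted p = 0.77). The Grin2b call was also lost without P5 replicate 1 of batch A (adjusted p = 0.066) and without P5 replicate 3 of batch B (adjusted p = 0.10). Grm2, a metabotropic receptor gene of mossy fiber terminals, went from 196, 164 and 143 CPM to 322, 348 and 324 (1.45, SE 0.12). Cacng3, an auxiliary subunit gene of AMPA receptors, rose by 1.44 (SE 0.12), and the AMPA receptor subunit genes Gria3 and Gria2 by 0.78 (SE 0.09) and 0.37 (SE 0.08).

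Among 24 genes of GABA receptors and chloride transport 11 rose (45.8%) and 2 fell (8.33%), beside 22.5% and 20.3% of all genes (median 0.24). Gabra4, a GABA-A receptor alpha subunit gene, stood at 87.8, 77.1 and 79.0 CPM at P7 and at 150, 167 and 164 at P10 (1.06, SE 0.10, adjusted p = 1.3e-08). All P10 libraries were above P7, and the P5 libraries lay at 65.2 to 66.6 CPM in batch A and 67.4 to 72.0 in batch B. Gabrd, whose product joins that subunit in extrasynaptic receptors of granule cells, went from 28.6, 22.2 and 19.8 CPM to 40.6, 42.5 and 38.9 (1.24, SE 0.15). The chloride exporter gene Slc12a5 went from 422, 411 and 343 CPM to 558, 541 and 550 (0.85, SE 0.09), and the importer gene Slc12a2 measured 23.2 to 24.5 CPM and 19.1 to 23.1 CPM (-0.31, SE 0.13, adjusted p = 0.057). The Slc12a2 change passed the test in 9 of the alternative fits, with values from -0.39 to -0.21. Gabra5 (0.04, adjusted p = 0.77) and Gabra2 (0.05, adjusted p = 0.75) did not pass, and both did without the batch term (0.18 and 0.48). The kinase genes Wnk1 and Wnk2, regulators of chloride cotransporters, were those that fell, Wnk2 by 0.45 (SE 0.11), and Wnk1 did not pass without P5 replicate 1 of batch B (-0.31, adjusted p = 0.060).

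Among 23 genes of granule cell identity 16 rose (69.6%) and none fell, beside 22.5% and 20.3% of all genes (median 0.76). Without the batch term 19 rose and 1 fell (median 0.48). The batch term passed the test for 11 of the 23, against 10.1% of all genes. Lct, a lactase gene long used as a marker of mature granule cells, stood at 35.0, 29.0 and 22.4 CPM at P7 and at 76.1, 92.5 and 78.6 at P10 (2.50, SE 0.19, adjusted p = 2.5e-08, and 1.52 without the batch term). C1ql2, which encodes a secreted C1q-like protein of mossy fiber synapses, went from 148, 111 and 110 CPM to 263, 328 and 274 (1.67, SE 0.15). The cation channel gene Trpc6 rose by 1.94 (SE 0.18) and Ahcyl2 by 1.28 (SE 0.12).

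Of 54 potassium channel genes 29 rose (53.7%) and 5 fell (9.26%), with a median of 0.51, beside 22.5% and 20.3% of all genes. Without the batch term 27 rose and 7 fell (median 0.26). Of 33 sodium, calcium and HCN channel genes 14 rose (42.4%) and 6 fell (18.2%), the latter near the share of all genes (median 0.29). Kcnj3, an inward rectifier gene, stood at 120, 103 and 94.4 CPM at P7 and at 200, 200 and 211 at P10 (0.95, SE 0.10, adjusted p = 8.1e-08). The inward rectifier gene Kcnj4 rose by 0.89 (SE 0.10), the voltage-gated channel gene Kcnc4 by 0.92 (SE 0.09) and the auxiliary subunit gene Kcnab1 by 1.08 (SE 0.11). Kcnip1, an auxiliary subunit gene of A-type channels, fell by 0.90 (SE 0.12). Cacnb1, a calcium channel beta subunit gene, rose by 0.66 (SE 0.09). Cacna1g, the gene of a low-voltage-activated calcium channel, fell from 81.2, 89.1 and 103 CPM to 56.9, 57.6 and 53.2 (-0.96, SE 0.12), and the pacemaker channel gene Hcn3 by 1.27 (SE 0.16).

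Of 56 calcium signalling and cAMP genes 34 rose (60.7%) and 5 fell (8.93%), beside 22.5% and 20.3% of all genes (median 0.49). Without the batch term 30 rose and 10 fell (median 0.29). Hpca, the hippocalcin gene, went from 427, 394 and 338 CPM to 817, 936 and 813 (1.35, SE 0.11, adjusted p = 2.1e-09). The kinase gene Camkk1 rose by 1.33 (SE 0.10), the calcium pump gene Atp2b2 by 0.95 (SE 0.10) and the inositol trisphosphate kinase gene Itpka by 0.85 (SE 0.09).

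Of 52 activity-regulated genes 26 rose (50%) and 5 fell (9.62%), beside 22.5% and 20.3% of all genes (median 0.55). Nrn1, which encodes a membrane-anchored neurotrophic protein, stood at 168, 136 and 128 CPM at P7 and at 274, 355 and 310 at P10 (1.54, SE 0.13, adjusted p = 3.2e-08). Among early transcription factor genes, Egr3 went from 121, 104 and 102 CPM to 193, 199 and 194 (0.84, SE 0.09). Egr1 rose by 1.49 (SE 0.16), and by 0.73 without the batch term. Arc, a gene of synaptic plasticity, rose by 1.21 (SE 0.26), and Bdnf, a neurotrophin gene, went from 73.6, 61.3 and 58.4 CPM to 115, 123 and 120 (0.70, SE 0.11). Fos overlapped, at 8.66, 12.0 and 8.71 CPM and 13.8, 10.7 and 13.4 CPM. Its change of 1.14 (SE 0.37, adjusted p = 0.019) was 0.37 without the batch term (adjusted p = 0.24) and did not pass without P5 replicate 1 of either batch (0.94 and 1.07) or without P7 replicate 3 (1.05). The cyclooxygenase gene Ptgs2 went from 1.19, 1.20 and 1.22 CPM to 6.63, 6.62 and 4.58 (3.67, SE 0.54, adjusted p = 9.6e-06, and 2.30 without the batch term). The P5 levels of Ptgs2 in batch A were 0.0575, 0.116 and 0.349 CPM, the first and second under the floor of 3 counts, and its change lay at 3.26 without P5 replicate 1 of that batch and at 4.62 without replicate 3. The kinase genes Plk3 and Sik1 were among those that fell, by 1.28 (SE 0.22) and 0.69 (SE 0.14).

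Of 36 neuropeptide and neurotrophic genes 12 rose (33.3%) and 6 fell (16.7%), beside 22.5% and 20.3% of all genes (median 0.35). Without the batch term 16 rose and 3 fell. The granin genes Chgb and Scg2 rose by 1.46 (SE 0.22) and 0.79 (SE 0.11), and Pcsk2, a prohormone convertase gene, by 0.91 (SE 0.12). Igf2 fell from 45.9, 60.2 and 49.8 CPM to 27.3, 23.7 and 15.7 (-1.56, SE 0.41, adjusted p = 0.0073).

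Of 60 synaptic adhesion genes 16 rose (26.7%) and 14 fell (23.3%), near the 22.5% and 20.3% of all genes (median 0.02), and without the batch term 26 rose and 11 fell. Of 34 cadherin and protocadherin genes 4 rose (11.8%) and 13 fell (38.2%), while their median log2 change was 0.1, and 0.02 without the batch term. Cntnap1, a contactin-associated adhesion gene, stood at 83.9, 69.0 and 61.6 CPM at P7 and at 166, 174 and 153 at P10 (2.04, SE 0.14, adjusted p = 2.7e-09, and 1.20 without the batch term). Gpr158, an orphan receptor gene of mossy fiber synapses, rose by 1.25 (SE 0.12), its glypican binding partner gene Gpc4 by 1.25 (SE 0.14) and the synaptic organizer gene Lrrc4 by 0.91 (SE 0.09). In the gamma protocadherin cluster Pcdhgc4 fell from 32.3, 37.2 and 38.7 CPM to 11.1, 7.17 and 10.8 (-1.86, SE 0.17, adjusted p = 1.2e-08) and Pcdhgc3 by 1.24 (SE 0.13). Pcdhgc5 rose in the fit with the batch term (1.38, SE 0.10, adjusted p = 1.7e-09) and did not pass without it (0.39, adjusted p = 0.16). Genes of that cluster share their last exons, so the split of reads among them is uncertain. Fat4, a giant cadherin gene, fell by 1.19 (SE 0.12).

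Nuclear genes of the respiratory chain rose almost throughout. Of 75 tested, 72 rose and none fell, against 22.5% and 20.3% of all genes, and the median log2 change was 0.56. Their median from P5 to P7 inside batch B was -0.02 and from P5 to P10 inside batch A 0.53. Cox8a, a subunit gene of cytochrome oxidase, stood at 138, 137 and 122 CPM at P7 and at 243, 228 and 232 at P10 (0.92, SE 0.10, adjusted p = 1.8e-07). Atp5j, a subunit gene of ATP synthase, went from 95.4, 90.3 and 76.8 CPM to 133, 136 and 136 (0.86, SE 0.10). Cox6a1 went from 170, 166 and 161 CPM to 275, 265 and 264 (0.62, SE 0.07), and Ndufa1, of complex I, rose by 0.86 (SE 0.11). The 11 fits that left out a library called 63 to 73 of the 75, and without the batch term 73 rose and none fell.

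Since these genes moved together, their promoters were searched for the letters GCGCA, any base and then GCGC, the core recognized by the nuclear respiratory factor NRF1, on both strands of the 250 bases before the annotated start, in RefSeq sequences of the build GRCm38.p6. The motif stood in 13 of 63 respiratory chain genes with a promoter in the tables (20.6%) and in 6 of 25 proteasome genes (24.0%). Of all tested genes with a promoter 8.57% held it, as did 11.2% of those that rose and 7.12% of those that fell. The 3 respiratory chain genes of smallest p that hold it are Cox6a1, Atp5h, of ATP synthase (0.64, SE 0.10), and Sdha, of complex II (0.59, SE 0.10). Their 60-base windows around a match are shown 5′ to 3′ on the strand of the gene, with each match inside the window in capitals. The search left only 1 base of a match open, so the matches are alike by design. Cox6a1 held 2 matches and Sdha 3 in the 250 bases, not all of which lie in these windows. They lie at chr5:115349041-115349100 (minus strand), chr11:115420026-115420085 (minus strand) and chr13:74350241-74350300 (minus strand).
Cox6a1: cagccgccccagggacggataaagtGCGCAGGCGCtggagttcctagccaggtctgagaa
Atp5h: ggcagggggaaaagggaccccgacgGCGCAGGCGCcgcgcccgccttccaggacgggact
Sdha: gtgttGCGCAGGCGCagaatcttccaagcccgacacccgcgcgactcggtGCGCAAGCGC
A match is a stretch of letters and no measurement of binding, and base composition was not matched between the groups.

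For the mitochondrially encoded genes the 2 fits gave different directions. Of 7 tested 1 rose and 2 fell with the batch term (median -0.05), and 4 rose and none fell without it (median 0.99). Without P7 replicate 3, and likewise without P10 replicate 3, 3 rose and 1 fell. The other 6 of the 13, among them mt-Co2, mt-Co3 and mt-Atp6, were at or near 0 counts in every library and did not pass the filter, so counts of this class are uncertain. mt-Co1 overlapped between ages, at 372 to 404 CPM and 342 to 463 CPM, and stood at 782 to 828 CPM at P5 in batch A and 410 to 426 in batch B. The change of mt-Co1 was -0.93 with the batch term (adjusted p = 0.00015) and 0.01 without it. The complex I gene mt-Nd1 likewise had -0.87 (adjusted p = 0.028) and 0.26, and its call was lost in 6 of the 11 fits without a library, with -0.92 to -0.72. Of the same complex, mt-Nd5 went from 100, 94.5 and 179 CPM to 862, 1083 and 391 (1.34, SE 0.49, adjusted p = 0.042, and 2.64 without the batch term), a call lost in 9 of those fits, with 1.01 to 1.51.

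Of 36 glycolysis and TCA cycle genes 29 rose (80.6%) and 2 fell (5.56%), beside 22.5% and 20.3% of all genes (median 0.60). Aldoa, the aldolase gene, stood at 1468, 1307 and 1066 CPM at P7 and at 2297, 2395 and 2367 at P10 (1.29, SE 0.11, adjusted p = 5.8e-09). The neuronal enolase gene Eno2 rose by 1.19 (SE 0.10), the lactate dehydrogenase gene Ldhb by 1.12 (SE 0.12) and the malate dehydrogenase gene Mdh1 by 1.01 (SE 0.12). Those that fell were the hexokinase gene Hk2 (-0.92, SE 0.19) and the isocitrate dehydrogenase gene Idh2 (-0.51, SE 0.16). Cholesterol biosynthesis genes moved the other way, with 12 of 27 lower and 1 higher (median -0.46). Cyp51, a lanosterol demethylase gene, fell from 82.7, 96.5 and 85.3 CPM to 47.1, 49.7 and 56.8 (-0.80, SE 0.12, adjusted p = 7.1e-06). The lanosterol synthase gene Lss fell by 0.75 (SE 0.13). Ebp, a sterol isomerase gene, rose by 1.03 (SE 0.21). Without the batch term 21 of the 27 fell, and without P5 replicate 3 of batch B 7 did.

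Of 31 proteasome genes 28 rose (90.3%) and none fell, beside 22.5% and 20.3% of all genes (median 0.37). Without the batch term 24 rose and none fell (median 0.23). Their median from P5 to P7 inside batch B was -0.12. Psmc5, an ATPase subunit gene of the regulatory particle, stood at 123, 119 and 104 CPM at P7 and at 137, 150 and 157 at P10 (0.65, SE 0.10, adjusted p = 1.2e-05), and Psmc3 rose by 0.58 (SE 0.09). Of 44 heat shock and chaperone genes 26 rose and none fell (median 0.35), with Fkbp5, a co-chaperone of steroid receptors, higher by 0.91 (SE 0.11) and Dnajb6 by 0.67 (SE 0.09). Without P5 replicate 1 of batch B 19 of the proteasome genes and 17 of these chaperone genes rose. Without the batch term 19 of the chaperone genes rose and 2 fell. Of 47 lysosome and autophagy genes 24 rose and 3 fell (median 0.29). Among them Atp6v1g2, a proton pump subunit gene, went from 254, 258 and 193 CPM to 438, 423 and 453 (1.29, SE 0.11, adjusted p = 8.7e-09). The pump gene Atp6v1d and the autophagy gene Gabarapl1 rose by 1.03 (SE 0.10) and 0.94 (SE 0.11).

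Of 79 cytosolic ribosomal protein genes 3 rose and 7 fell (median -0.05), against 22.5% and 20.3% of all genes. Rps12 fell by 0.57 (SE 0.09), and Rpl27a was higher by 0.31 (SE 0.08) with the batch term and by 0.09 without it (adjusted p = 0.27). Processed pseudogenes close in sequence to many of these genes leave their counts uncertain. Of 39 translation factor genes 10 rose (25.6%) and 5 fell (12.8%), with a median of 0.12, and without the batch term 11 rose and 10 fell. The elongation factor gene Eef1a2, the form of mature neurons, rose from 648, 619 and 478 CPM to 946, 942 and 948 (0.95, SE 0.12), and Eef1b2 fell by 0.56 (SE 0.08).

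Of 63 neuronal transcription factor genes 24 rose (38.1%) and 13 fell (20.6%), the latter near the 20.3% of all genes (median 0.27). Klf9, a Krueppel-like factor gene, stood at 236, 192 and 183 CPM at P7 and at 436, 500 and 457 at P10 (1.70, SE 0.11, adjusted p = 3.1e-10, and 1.19 without the batch term). Tef, a PAR bZIP factor gene, rose by 1.10 (SE 0.09), Bhlhe41, a repressor of the circadian clock, by 1.64 (SE 0.17) and the activity-dependent factor gene Mef2d by 1.04 (SE 0.10). Bcl6, a transcriptional repressor gene, went from 62.5, 53 and 44.5 CPM to 95.4, 106 and 90.8 (1.19, SE 0.15). Of 49 RNA-binding and splicing genes 16 rose (32.7%) and 9 fell (18.4%), with a median of 0.04. The neuronal splicing factor genes Rbfox1 and Rbfox3 rose by 1.33 (SE 0.11) and 0.66 (SE 0.08), Celf1 by 0.72 (SE 0.09), and Hnrnpa1 fell by 0.62 (SE 0.09).

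Extracellular matrix genes fell in 35 of 49 cases (71.4%) and rose in 4 (8.16%), beside 20.3% and 22.5% of all genes (median -1.53). Col18a1, a basement membrane collagen gene, stood at 9.90, 11.8 and 13.9 CPM at P7 and at 4.10, 4.28 and 2.83 at P10. Its P5 libraries lay at 26.0 to 29.2 CPM in batch A and 9.65 to 10.3 in batch B, and its change was -3.13 with the batch term (SE 0.26, adjusted p = 5.7e-09) and -1.67 without it. The basement membrane gene Nid1 fell by 2.59 (SE 0.28) and the collagen gene Col5a1 by 2.49 (SE 0.26). Ncan, a chondroitin sulfate proteoglycan gene of brain matrix, went from 478, 493 and 466 CPM to 359, 356 and 332 (-0.72, SE 0.07). Sparcl1, an astrocyte-secreted matrix protein gene, rose by 1.11 (SE 0.13) with the batch term and did not pass without it (0.32, adjusted p = 0.21). The fibrillar collagen genes were the ones that rested most on the batch term. Col1a2 stood at 50.7, 60.3 and 97.1 CPM at P7 and 33.6, 23.6 and 17.2 at P10, but at 138 to 180 in the P5 libraries of batch A and 30.3 to 34.4 in those of batch B. Its change was -3.79 with the batch term (SE 0.37) and -1.49 without it (adjusted p = 0.046). Col1a1 (-3.79 and -1.14) and Col3a1 (-4.20 and -1.70) did not pass without it (adjusted p = 0.16 and 0.050). Over 15 meningeal and fibroblast genes, which include these, 8 fell and none rose. Their summed level was 354 to 554 CPM at P7, 164 to 282 at P10, 687 to 844 in the P5 libraries of batch A and 272 to 331 in those of batch B. Their part in the collagen result was not tested.

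Imprinted genes fell in 12 of 33 cases (36.4%) and rose in 4 (12.1%), beside 20.3% and 22.5% of all genes (median -0.36). The long noncoding RNA gene Meg3 stood at 567, 486 and 1279 CPM at P7, with replicate 3 high, and at 243, 181 and 115 at P10 (-2.83, SE 0.76, adjusted p = 0.0085). Mirg, from the same imprinted cluster, fell from 6.72, 6.04 and 12.5 CPM to 2.53, 1.81 and 2.17 (-2.79, SE 0.47). The zinc finger gene Zim1 fell by 1.43 (SE 0.21). Snrpn, a spliceosomal protein gene, rose by 0.70 (SE 0.10) and Impact by 1.01 (SE 0.15).

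Of 35 genes of apoptosis and the p53 pathway 6 rose (17.1%) and 7 fell, near the shares of all genes (median -0.06), with Sesn1, a stress-induced gene, higher by 1.17 (SE 0.13).

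Among the genes with the largest changes that both fits called, the retinoic acid binding protein gene Crabp1 fell the furthest. It stood at 6.62, 5.46 and 6.83 CPM at P7 and at 0.663, 0.421 and 0.843 at P10, all P10 libraries below all P7 libraries by the rule that named it (-4.20, SE 0.28, adjusted p = 3.1e-10, and -3.28 without the batch term). Upward, the peptide hormone receptor gene Glp2r went from 5.67, 4.88 and 3.95 CPM to 15.3, 19.2 and 14.8 (3.35, SE 0.25, adjusted p = 1.2e-09, and 1.77 without the batch term). The annexin gene Anxa11 went from 17.8, 16.8 and 11.3 CPM to 42.5, 52.0 and 47.0 (2.88, SE 0.23). Ankrd33b, an ankyrin repeat gene, went from 23.4, 18.9 and 16.6 CPM to 53, 47.9 and 48.4 (2.79, SE 0.17, adjusted p = 1.3e-10, and 1.35 without the batch term). Tnnt2, a troponin gene, had the highest fitted change among these genes of at least 5 CPM at an age, from 1.84, 0.932 and 1.59 CPM to 7.60, 6.44 and 6.80 (4.14, SE 0.55, adjusted p = 2.7e-06). That value rests on P5 levels of 0.0575, 0.405 and 0.175 CPM in batch A, of which only the second exceeds the floor of 3 counts, and it lay at 3.69 to 4.98 with 1 library left out, at its ends without P5 replicate 1 or 2 of batch A. Without the batch term Tnnt2 changed by 2.26, less than Mag (3.12). Il33, an interleukin gene, rose by 2.54 (SE 0.33). Genes of motile cilia were among those that fell. Hydin, of the axoneme, went from 5.37, 4.71 and 7.04 CPM to 1.02, 0.843 and 0.421 (-2.87, SE 0.52), and Cfap65 fell by 3.30 (SE 0.67). Tnc, the tenascin C gene of the matrix, went from 39.0, 42.6 and 58.0 CPM to 11.2, 9.76 and 7.16 (-2.75, SE 0.38). Itm2c, an integral membrane protein gene, went from 312, 270 and 227 CPM to 611, 648 and 620 (1.73, SE 0.11). In mm10, GENCODE release vM21 places Crabp1 on chromosome 9 from 54764748 to 54773110 (plus strand), Vim on chromosome 2 from 13573927 to 13582826 (plus strand) and Klf9 on chromosome 19 from 23141226 to 23168134 (plus strand). Cox8a lies on chromosome 19 from 7215153 to 7217616 (minus strand), and all 4 are protein-coding.

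**Figure D3:**
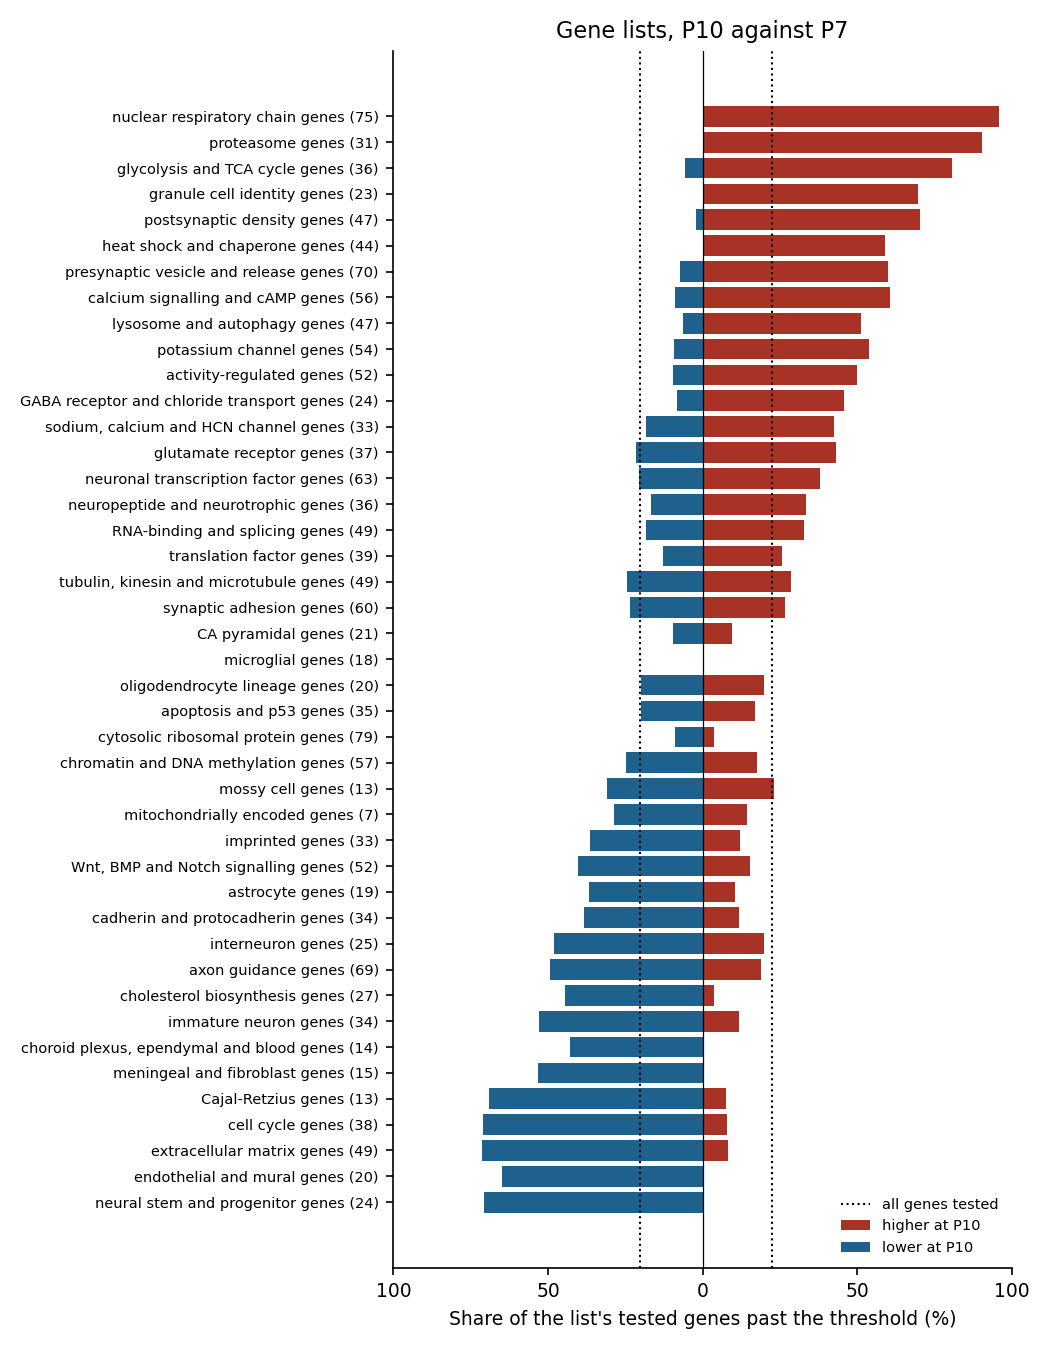
Share of each list's tested genes that rose (right, red) or fell (left, blue) from P7 to P10, in percent, with the number tested in parentheses; dotted lines give the shares of all genes tested, 22.5% and 20.3%. Respiratory chain genes stand at one end with 72 of 75 higher and progenitor genes at the other with 17 of 24 lower.

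Markers of other cell types were present at both ages. Of 20 oligodendrocyte lineage genes 4 rose and 4 fell, near the 22.5% and 20.3% of all genes, with a median of 0.34. Without the batch term 13 rose and 3 fell (median 1.05). The myelin gene Mbp stood at 115, 119 and 89.2 CPM at P7 and at 423, 505 and 299 at P10 (2.05, SE 0.31, adjusted p = 0.00013), Mag rose by 2.89 (SE 0.78) and Cldn11 by 1.64 (SE 0.55). Without P5 replicate 1 of batch B, Mag (2.85, adjusted p = 0.056) and Cldn11 (1.27, adjusted p = 0.21) did not pass, and Cldn11 was lost without P5 replicate 2 or 3 of batch A as well (1.55 and 1.45). The precursor genes Pdgfra (-1.86, SE 0.26), also in the fibroblast list, and Cspg4 (-1.61, SE 0.32), also in the mural list, fell. The lineage genes Olig2 (-1.14, SE 0.28) and Olig1 (-1.05, SE 0.19) fell too, Olig1 not without the batch term (-0.41). The summed level of the 20 genes was 310 to 361 CPM at P7 and 552 to 937 at P10, and Mog and Opalin were at 0 in at least 1 of these libraries. Of 20 endothelial and mural genes 13 fell and none rose (median -1.34), among them Vtn (-1.71, SE 0.25), Cdh5 (-2.38, SE 0.37) and Cldn5 (-1.40, SE 0.25), and their sum was 155 to 209 CPM at P7 and 99.2 to 111 at P10. Of 19 astrocyte genes 7 fell and 2 rose, with Mlc1 lower by 0.99 (SE 0.16), Aldh1l1 lower (-1.03, SE 0.19), Aqp4 lower (-0.75, SE 0.20) and Slc4a4 higher (0.62, SE 0.13). Their sums, 1340 to 1620 CPM and 1300 to 1790 CPM, overlapped. Of 18 microglial genes none passed, and C1qa stood at 2.85 to 3.58 CPM and 2.47 to 3.01 CPM (adjusted p = 0.82). At an unadjusted p under 0.05 none of them passed either, the fit without the batch term called 2 higher, and the fit without P10 replicate 2 called 2 lower.

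Some neuronal markers other than those of granule cells also differed. Of all genes 22.5% rose and 20.3% fell. Of 25 interneuron genes 12 fell, such as Dlx1 (-1.40, SE 0.27) and Lhx6 (-0.94, SE 0.22), developmental transcription factor genes of GABAergic cells. The 5 that rose included Cck (1.15, SE 0.21), Sst (1.33, SE 0.31) and Gad1 (0.52, SE 0.14), the last from 99.7 to 123 CPM to 125 to 161. The sum of the list was 748 to 823 CPM at P7 and 773 to 842 at P10, and Pvalb was at 0 in some of these libraries. Cajal-Retzius genes fell in 9 of 13 cases and 1 rose (median -1.38), among them Reln (-1.53, SE 0.34), Ebf2 (-1.54, SE 0.29) and Ndnf (-1.31, SE 0.20). Of 21 CA pyramidal genes 2 rose and 2 fell (9.52% each), below the shares of all genes. Grp was higher (0.61, SE 0.13) and Neurod6 lower (-0.82, SE 0.31, adjusted p = 0.046). The call for Neurod6 was lost in 7 of the 11 fits without a library, with values from -0.86 to -0.77, and that for Cacng5 (0.40) in 6 of them. Lhfpl1 (-1.65) was lost without P5 replicate 1 of batch B (-1.46) or P7 replicate 3 (-1.35). Wfs1, a marker gene of CA1, stood at 53.1, 58.5 and 37.6 CPM at P7 and at 422, 41.5 and 263 at P10, so that P10 replicates 1 and 3 were high and replicate 2 lay in the range of P7 (2.24, SE 1.19, adjusted p = 0.15). Without replicate 2 the Wfs1 change was 2.74 (adjusted p = 0.046). The summed CA pyramidal level was likewise 2640 and 2610 CPM in replicates 1 and 3 of P10 and 1860 in replicate 2, against 1990 to 2300 at P7. Of 13 mossy cell genes 3 rose (23.1%) and 4 fell (30.8%), not far from the shares of all genes for so short a list. Their median was 0.05, and -0.41 without the batch term. Ociad2 was higher by 0.71 (SE 0.18) and Calcrl lower (-1.87, SE 0.40). Of 14 choroid plexus, ependymal and blood genes 6 fell and none rose (median -1.26), among them Foxj1, a master gene of motile cilia (-1.14, SE 0.15), and the hemoglobin gene Hba-a1 (-1.84, SE 0.32), whose near-identical copy makes its count uncertain. The sum of that list was 238 to 300 CPM at P7 and 135 to 183 at P10.

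The part of any of these cells in the gene groups above was not tested.

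A few genes took a large and changing share of all counts. They were singled out after their values were seen. The spectrin genes Sptan1 and Sptbn1 and the ankyrin gene Ank2, of the membrane skeleton, together held 7.52%, 7.67% and 6.08% of the counts in the P7 libraries and 2.09%, 2.23% and 1.07% in the P10 libraries. At P5 their share was 0.540% to 0.665% in batch A and 1.88% to 2.09% in batch B, so that P10 lay below P7 between batches and above P5 within its own. Sptan1 accordingly changed by 0.12 with the batch term (SE 0.41, adjusted p = 0.84) and by -1.83 without it (adjusted p = 0.013). Sptbn1 changed by -0.34 (adjusted p = 0.41) and -2.26 (adjusted p = 0.0025). Ank2 was lower in both fits (-0.87 and -2.37), the first (adjusted p = 0.027) lost in 4 of the 11 fits without a library. The actin-binding gene Dbn1 was lower too (-2.36 without the batch term), and its call with that term (adjusted p = 0.031) was lost in 5 of them. Also lower was the cytoskeletal linker gene Macf1 (-1.20 and -2.78). Whether the levels of these genes follow age or the preparation of the libraries cannot be told apart for P7 against P10. With a covariate for the level of Sptan1 and Sptbn1 (chosen after the data were seen), 6493 genes were called, 6368 of which were among the 6578.

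A second set of abundant genes fell with age in both batches. Trp53bp1, a DNA damage response gene, and Bcar1, which encodes an adaptor protein of adhesion signalling, together held 5.88% to 7.37% of counts at P5, 2.69%, 3.07% and 3.61% at P7 and 0.943%, 1.08% and 0.901% at P10. Trp53bp1 changed by -1.88 with the batch term (SE 0.21, adjusted p = 2.2e-06) and by the same amount without it, and Bcar1 by -1.39 (SE 0.19) and -1.35. Cenpf, a kinetochore protein gene, followed the same course, from 1444, 1708 and 2102 CPM at P7 to 272, 342 and 280 at P10 (-2.57, SE 0.25, adjusted p = 2.0e-06).

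**Figure D4:**
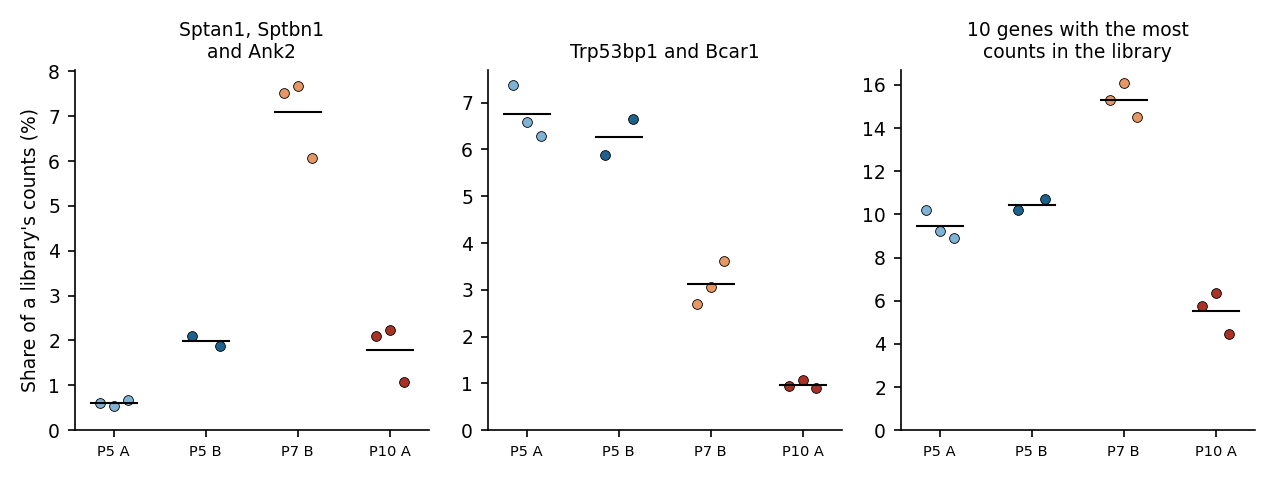
Share of each library's counts, in percent, held by Sptan1, Sptbn1 and Ank2 (left), by Trp53bp1 and Bcar1 (middle) and by the 10 genes with the most counts in that library (right); a point is a library and a line the group mean. The spectrin and ankyrin share is highest in the P7 libraries, at 6.08% to 7.67%.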

How the data were processed

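Ribosome-associated poly-adenylated RNA was measured in 20 libraries, and the authors' deposited table holds raw counts per gene symbol. STAR 2.7.5b, featureCounts, SAMtools 1.10 and the build mm10 are named, per the submitters' processing notes. Annotation, strand setting and the treatment of multiply mapped reads were not given in these sources, which leaves overlapping and near-identical genes uncertain. Of 32245 symbols 8790 were 0 in every library and 31490 (97.7%) were found in GENCODE vM21. Groups and batches came from the labels. Counts were fitted with edgeR 4.0.16 (R 4.3.3) over all 20 libraries, with a mean for each age, a term for batch B and trimmed-mean factors. Low counts were removed with filterByExpr at its defaults, which kept 15373 genes, and quasi-likelihood p-values were Benjamini-Hochberg adjusted and read at 0.05. Standard errors were derived from the log2 change and its F statistic. Residual degrees of freedom were 13 and the biological coefficient of variation 8.46%. At 3 counts the floor was 0.12 to 0.189 CPM, which covers counting error only. Replicates differed beyond sampling noise (ratio of chi-square to its degrees of freedom from 9.52 to 21.7 at P7 and from 11.5 to 22.8 at P10), so each was 1 sample.

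The 43 gene lists, the members named and the comparison were chosen with earlier results of these data known. No set test was run. Named genes are the 15 highest and 15 lowest changes and 10 smallest p among genes past the threshold in both fits with at least 5 CPM at an age and no overlap of libraries, without predicted or sex-linked names. From each list they are the 4 smallest p, or every called member of a list with at most 6 calls, and a panel of 35 genes was added. The text gives a selection of these, and some are not reported here. Members that moved against their list, members named beyond the rule (such as C1ql2, Cldn11, Olig2, Sst and Wfs1), the abundant genes and those in the promoter search were chosen after their values were seen. Alternatives were DESeq2 1.42.0 and its size factors, limma-voom (limma 3.58.1), total counts, other filters, no batch term, fewer libraries, a replicate block, a spectrin covariate and leaving out each library. The spectrin covariate, and leaving out libraries for the lists, were added after seeing the data. The test was run on simulated counts first.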

Additional observations from a re-analysis of the deposited data

How the results depend on the processing

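The count of genes that changed from P7 to P10 lay between 4896 and 7788 over all alternatives. Every call shared with the full fit had the same direction, which says little, since these fits use the same libraries or a part of them. Leaving out each library in turn gave 4896 to 6745 calls, 1542 to 2221 at least 2-fold, 8690 to 9586 for P10 against P5 in batch A, 518 to 1848 for P7 against P5 in batch B and 613 to 1848 for the batch term. The lowest values for P7 against P5 were 518 and 1020, without P5 replicate 1 or 3 of batch B, and those for the batch term 953, 772 and 613, without P5 replicate 1 of batch A and replicates 1 and 3 of batch B. P7 against P5 gave 3035 calls with total counts, 3586 with no batch term and 1128 with the 11 libraries of P5, P7 and P10, which gave 844 for the batch term. The stricter filter left 1216 genes at least 2-fold, with fewer genes tested. Without the batch term, members called were 22 for cholesterol, 19 for ribosomal, 16 for oligodendrocyte, 2 for microglial and 7 for CA pyramidal genes, and the signs of mt-Co1 (0.01), mt-Nd1 (0.26), Neurod1 (0.12) and Sptan1 (-1.83) turned; the cause was not tested. Without 1 library, members called ranged from 2 to 6 for CA pyramidal, 8 to 16 for cholesterol, 17 to 27 for chaperone, 0 to 2 for microglial, 1 to 4 for mitochondrially encoded and 3 to 7 for mossy cell genes. The range was 19 to 29 for proteasome, 18 to 25 for glutamate receptor and 27 to 38 for neuronal transcription factor genes. It was 20 to 29 for Wnt, BMP and Notch signalling and 13 to 18 for interneuron genes. Deviations of libraries with the same replicate number correlated at -0.127, -0.247 and -0.198 between P7 and P10. Inside batch A the values were 0.016, 0.022 and 0.174 between P5 and P10. Inside batch B they were 0.088 and 0.213 between P5 and P7. Deviations from the mean of so few libraries cannot decide whether the numbers pair the samples. The replicate block gave 6389 calls, 6260 of them shared. Depth limits genes near the floor, and 2 P5 libraries in batch B limit the batch term.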
